A study of Mus musculus with 4 samples.

Results

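Secondary neurospheres were compared with primary neurospheres in the cells whose arrays were titled control. Neurospheres are floating clusters of dividing neural stem and progenitor cells, and here the cells had been differentiated from mouse embryonic stem cells through embryoid bodies. The comparison took 2 of the 4 arrays of the series, 1 for primary spheres (passage 0, 6 days of culture after the embryoid body stage) and 1 for secondary spheres (passage 1, 12 days). Both were chosen by title, passage and day, and not by any measured value. In each passage, cells carrying an NFIA overexpression line (NFIA OE) and control cells had grown together in mixed spheres, and the cells were sorted apart before RNA was taken. NFIA is a transcription factor of the nuclear factor I family. The labels disagree on which sorted cells these were: the arrays titled control carry source names that call the cells the NFIA OE line. Both arrays carry the same contradiction, so the comparison is of passage within 1 kind of sorted cell, whichever kind it was. Passage and days in culture change together and cannot be told apart. No agent, age or donor distinguishes the 2 arrays in the labels.

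Each array was a one-colour Agilent mouse miRNA array with 611 mouse miRNAs. A miRNA counted as detected where at least 50% of the spots of 1 of its probes were well above background by the scanner's own flag. The primary array detected 186 miRNAs and the secondary array 209. Both arrays detected 160 miRNAs, which are the ones measured here, 49 were detected on the secondary array only, 26 on the primary array only, and 376 on neither. There was 1 array per group, so no difference below has a test or a biological error, and the standard errors given are technical, over the spots of a probe on 1 array. That there is a single array per group limits how precisely any value is known.

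MicroRNAs are short RNAs, cut from hairpin precursors, that lead silencing complexes to messenger RNAs and lower their output. Pairing depends mostly on the seed, bases 2 to 8 of the mature RNA, and miRNAs with 1 seed form a family with largely shared targets. Embryonic stem cells are known for the miR-290 to miR-295 and miR-302 to miR-367 clusters, and the let-7 family is held back in them by the RNA-binding protein Lin28 and accumulates as cells differentiate. Neural progenitors are known for miR-9, and neurons for miR-124.

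The sequences below show miRNAs of families described later, including members that differed little between the arrays. After miR-302b, the lowest differences fell on miR-541, miR-410 and miR-495, which have other seeds and are not printed. The printed sequences are RefSeq mature sequences from the GRCm38.p6 assembly, written 5′ to 3′, with the seed in capitals. A RefSeq sequence matched 142 of the 235 miRNAs detected on either array, 102 of them measured on both. The let-7 members carry the seed GAGGUAG and differ from each other outside it.
let-7a: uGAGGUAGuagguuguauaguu
let-7b: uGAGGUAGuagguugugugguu
let-7c: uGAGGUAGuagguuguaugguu
let-7d: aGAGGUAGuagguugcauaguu
let-7e: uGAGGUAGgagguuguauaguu
let-7i: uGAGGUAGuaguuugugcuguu
miR-98: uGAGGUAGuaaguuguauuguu
The miR-99/100 family shares the seed ACCCGUA, and miR-9 and miR-9* are the opposite strands of 1 hairpin.
miR-99a: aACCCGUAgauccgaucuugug
miR-100: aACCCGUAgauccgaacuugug
miR-99b: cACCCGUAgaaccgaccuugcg
miR-9: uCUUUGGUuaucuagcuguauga
miR-9*: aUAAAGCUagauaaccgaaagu
Several members of the stem cell clusters, from different chromosomes, share the seed AAGUGCU. That of the miR-17 family, AAAGUGC, is the same run of letters moved by 1 base.
miR-302b: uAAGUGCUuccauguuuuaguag
miR-291a-3p: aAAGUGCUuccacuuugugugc
miR-294: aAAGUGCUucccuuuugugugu
miR-295: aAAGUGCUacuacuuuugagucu
miR-20a: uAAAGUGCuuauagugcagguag
miR-20b: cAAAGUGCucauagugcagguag
A further seed, AUUGCAC, joins miR-92a of the miR-17 clusters, miR-92b from a separate locus, and miR-367 of the miR-302 cluster.
miR-92a: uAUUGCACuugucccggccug
miR-92b: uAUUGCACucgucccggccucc
miR-367: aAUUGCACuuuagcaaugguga
Finally, miR-322 shares the seed AGCAGCA with the miR-15/16 family.
miR-322: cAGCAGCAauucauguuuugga
miR-15b: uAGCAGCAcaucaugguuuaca
miR-16: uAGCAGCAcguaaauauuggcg

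The primary array was the dimmer, and how the arrays were scaled decided how many miRNAs counted as higher or lower. Over the probes detected on all 4 arrays, the 75th percentile of processed intensity was 167.3 on the primary and 442.9 on the secondary array, a 2.65-fold difference. The level used below is the log2 of a probe's processed intensity over that percentile of its own array, averaged over the probes of a miRNA detected on both arrays. A difference is the secondary level minus the primary level, so that 1 on the log2 scale is 2-fold. On this scale 16 of the 160 miRNAs (10%) were at least 2-fold higher on the secondary array, 41 (25.6%) were at least 2-fold lower, and the median difference was -0.41. The authors' deposited values, which divide each array by a constant of their own, gave 35 higher (21.9%), 13 lower (8.12%) and a median of 0.24. Without any scaling 79 were higher and 1 was lower, with a median of 0.99. Quantile normalization put 25 higher and 27 lower, with a median of 0.01. The balance between higher and lower thus depended on the scaling, and a count or median of a group is to be read against these shares and medians over all measured miRNAs.

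A smaller set did not depend on that choice. Across 8 ways of scaling or background correction, 23 miRNAs were higher on the secondary array under every one, 24 were lower under every one, and 113 changed sign. Most of the 8 divide each array by 1 constant or leave it as it is. They shift all miRNAs alike and are not separate checks. Some of the 24 lay within their technical error of 0 without scaling, such as miR-34a and miR-20b. At least 2-fold under all 8, 12 were higher: let-7a, let-7c, let-7d, let-7f, let-7g, let-7i, miR-9, miR-9*, miR-99a, miR-210, miR-322 and miR-21. Only miR-302b was at least 2-fold lower under all 8. The 8 include no scaling, under which 79 miRNAs were at least 2-fold higher and only 1 lower. No more than 1 could thus have passed as lower. The median technical standard error of a difference was 0.05 and the largest 0.19. Of the 160 miRNAs, 100 were read by more than 1 probe, and the median gap between their probes was 0.06. The spots of 1 array thus repeated closely, which says nothing of how another culture would have read.

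**Figure D1:**
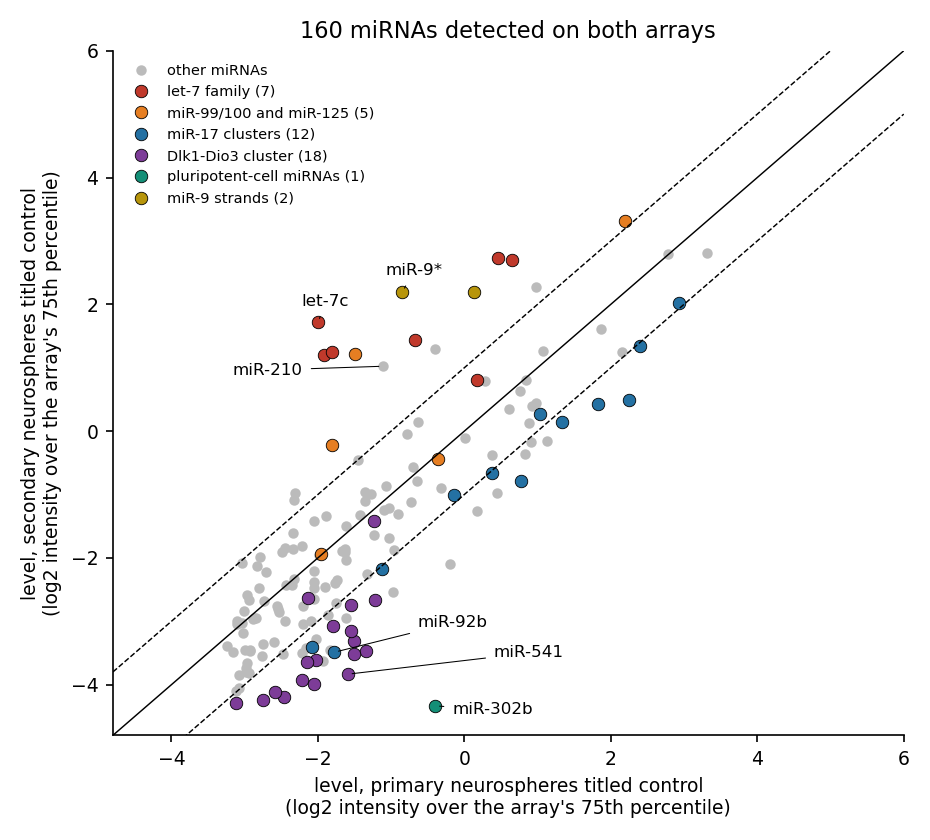
Level of each of the 160 miRNAs detected on both arrays, with primary spheres on the x axis and secondary spheres on the y axis, as log2 of intensity over the array's 75th percentile. The solid line marks equal levels and the dashed lines 2-fold. The let-7, miR-99/100 and miR-9 members sit above the upper dashed line except let-7e, miR-99b and miR-125a-5p, and most Dlk1-Dio3 members sit below the lower one.

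The let-7 family, which marks the passage from stem cell to differentiated states, was higher as a group on the secondary array. The unscaled intensity of let-7c was 44.4 on the primary and 1524 on the secondary array, a scaled difference of 3.71 (technical standard error 0.048), which was the highest of all 160. That of let-7d was 46.3 and 1053, with a difference of 3.11. The same values for let-7i were 47.9 and 1060, with a difference of 3.06. Without scaling these 3 differences were 5.12, 4.52 and 4.46. The rest of the family differed less. For let-7f the intensities were 257 and 3256 (difference 2.28), for let-7a 272 and 3021 (2.04), and for let-7g 108 and 1248 (2.12). The seventh measured member, let-7e, went from 192 to 793, a difference of 0.63, short of 2-fold. Over the 7 measured members the median was 2.28, against -0.41 over all miRNAs. Of the 7, 6 were at least 2-fold higher (10% over all) and 0 lower (25.6% over all). With the authors' values the median was 2.89 (0.24 over all) and all 7 were at least 2-fold higher (21.9% over all). The sign of all 7 was the same under each of the 8 settings.

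Both remaining members were detected on the secondary array only. The intensity of let-7b was 603 there and 6.87, not well above background, on the primary array. Its fold is at least 12.2, taken against the higher of the primary array's lowest detected signal and the probe's own signal. For miR-98 the intensities were 244 and 9.59, at least 5.18-fold. The family so went from 7 detected members of 9 to 9 of 9, while the arrays detected 186 and 209 of all 611 miRNAs. Because members differ by a few bases, as the sequences show, probes of 1 member may bind another, and how much was not tested.

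Neighbours on the chromosome divided in the same way. Mir99a and Mirlet7c-1 lie next to each other on chromosome 16 (GRCm38.p6, chr16:77598940-77598961 and chr16:77599672-77599693), outside the span of any other gene in the RefSeq table. The second let-7c locus, Mirlet7c-2, lies with Mirlet7b on chromosome 15 in the non-coding RNA gene Lncppara (chr15:85706616-85706637 and chr15:85707325-85707346), and the array cannot separate the 2 loci. The intensity of miR-99a was 59.4 on the primary and 1024 on the secondary array, a difference of 2.70. Its seed partner miR-100, from chromosome 9 (chr9:41531437-41531458), went from 47.6 to 378, a difference of 1.59. The paralogous cluster on chromosome 17, within the span of Spaca6, did not show such a difference. There miR-99b differed by 0.014, let-7e by 0.63 and miR-125a-5p by -0.07. The second miR-125 member, miR-125b-5p, the homologue of the worm timing RNA lin-4, had intensities of 1091 and 6358 and a difference of 1.13, which fell under 2-fold with quantile normalization. Of the 5 miR-99/100 and miR-125 members, 3 were at least 2-fold higher (10% over all miRNAs) and 0 lower. Their median of 1.13 stayed positive under all 8 settings, and miR-100 fell short of 2-fold under normexp background correction (0.84).

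Both strands of miR-9, which in the embryonic brain is known to be abundant in progenitors of the neural tube, were higher under all 8 settings. For miR-9 the intensities were 199.7 and 2222, with a difference of 2.06. For miR-9* they were 95.7 and 2059, with a difference of 3.04. The gap between the strands, 0.98, was the widest among the 14 hairpins measured on both strands. Over those hairpins 12 pairs of strands had the same sign, the median gap was 0.27, and none reached 2-fold.

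Most of the neuronal list differed by less than 2-fold. Of its 13 miRNAs, 8 were measured, 0 were at least 2-fold higher and 1 was lower (25.6% over all miRNAs). Their median of -0.42 lay at that of all miRNAs (-0.011 relative to it). With the authors' values it was 0.23 (0.24 over all), with 2 of the 8 at least 2-fold higher (21.9% over all) and 0 lower. The 1 lower on the main scale was miR-124, the main miRNA of neurons, with intensities of 147 and 132 and a difference of -1.56. It was below 0 under all 8 settings, and -0.16 without scaling. Also below 0 on the main scale, short of 2-fold and with a sign that turned with the scaling, were miR-7a (-0.95), miR-218 (-0.91) and miR-153 (-0.75). On the other side of 0 stood the strands of miR-129, with 0.74 for miR-129-3p and 0.59 for miR-129-5p. Detected on the secondary array only were miR-132 and miR-212, products of 1 activity-regulated locus, and miR-7b, each too dim for a fold. In the lists linked to glia, miR-26 and miR-29 members had a median of 0.50 over 4 measured, 0 of them 2-fold either way. With the authors' values 3 of the 4 were at least 2-fold higher (21.9% over all miRNAs), with a median of 1.20, and under normexp background correction the median was negative (-0.13). Of the oligodendrocyte miRNAs, miR-219 differed by -0.76 and miR-338-3p was detected on the secondary array only.

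**Figure D2:**
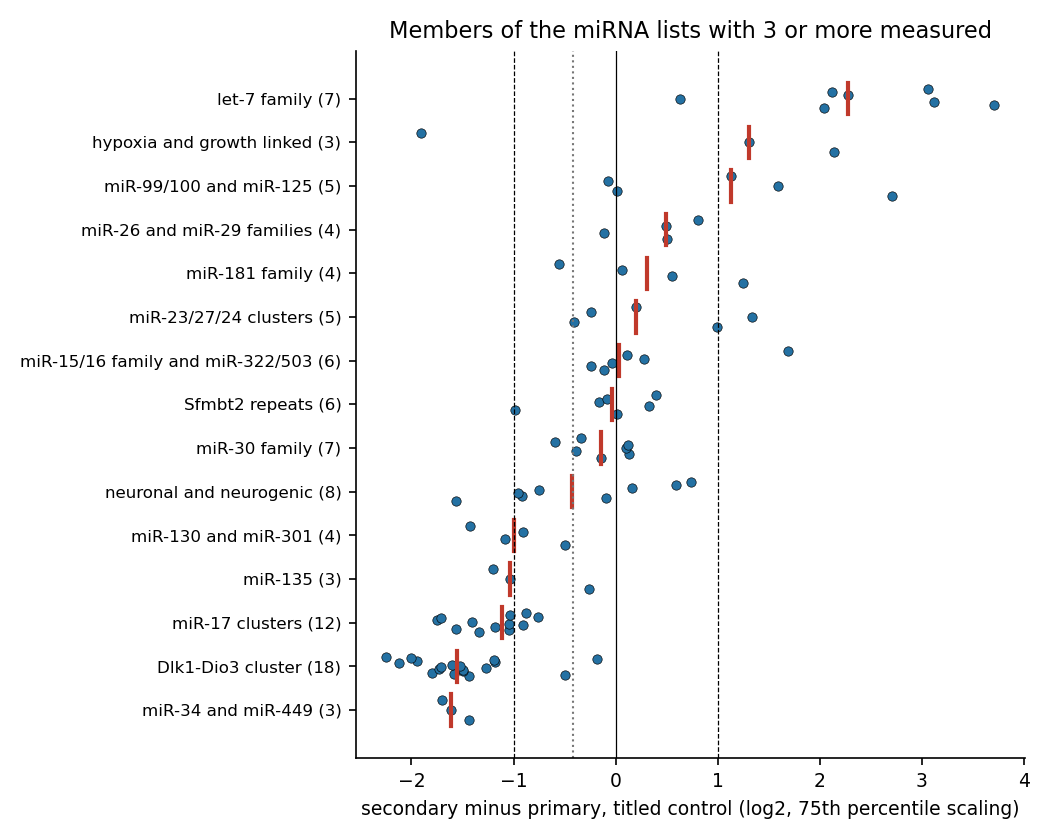
Difference between secondary and primary spheres, log2 under the 75th percentile scaling, for members of each list with 3 or more measured (number in brackets). Points are miRNAs, red bars list medians, the dotted line the median of all 160 and the dashed lines 2-fold; the let-7 median lies at 2.28 and the Dlk1-Dio3 median at -1.55.

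MicroRNAs of pluripotent cells were read mainly on the primary array, although of all 611 miRNAs that array detected 186 and the secondary array 209. Of the 16 miRNAs of the miR-290 to miR-295 and miR-302 to miR-367 clusters on the array, 10 were detected in primary spheres and 1 in secondary spheres. The exception, miR-302b, had an intensity of 127 on the primary and 21.9 on the secondary array, a difference of -3.94 (technical standard error 0.091), the lowest of the 160. Its secondary value, from 1 probe, was the lowest signal counted as detected on that array, so the difference is close to the largest fall that could have been read. It was -2.54 without scaling and -2.30 under normexp background correction. Mir302b lies on chromosome 3 (chr3:127545275-127545297) within the span of Larp7.

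The other 9 were detected on the primary array only. For miR-291a-3p the intensity was 147.9 there and 12.7 on the secondary array, at least 17.5-fold lower. For miR-294, the best known of the cluster in stem cell proliferation, it was 144 and 10.7, at least 15.7-fold lower. The bound was 16.1-fold for miR-292-3p, 13.0-fold for miR-295 and 9.21-fold for miR-293. In the other cluster it was 14.5-fold for miR-367, 5.37-fold for miR-302d, 5.04-fold for miR-302a and 3.23-fold for miR-302c. Without scaling the bounds of 7 of these 9 still exceeded 2-fold, and those of miR-302a and miR-302c did not (log2 0.93 and 0.29). In a bulk sample, fewer cells of a type and less RNA per cell cannot be told apart.

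The miR-17 clusters, known for promoting division in embryonic and tumour cells, were lower as a group on the main scale. All 12 measured members lay below 0, as did 108 of all 160 miRNAs, and 9 were at least 2-fold lower (25.6% over all) and 0 higher. Their median was -1.11, or -0.70 relative to that of all miRNAs. With the authors' values 2 of the 12 were at least 2-fold lower (8.12% over all) and the median was -0.49, and without scaling the median turned positive (0.29). The intensity of miR-92a was 913 on the primary and 717 on the secondary array, a difference of -1.75. Its seed partner miR-92b, a marker of neural progenitors, is counted here though its locus on chromosome 3 lies outside these clusters. The intensities of miR-92b were 48.9 and 39.5, with a difference of -1.71. These 2 were lower under all 8 settings, as was miR-18a (-1.56). The unscaled difference of miR-20b (-0.0031, scaled -1.41) was smaller than its technical standard error of 0.018. The other 8 had a higher unscaled value on the secondary array: miR-20a had 929 and 1185, a scaled difference of -1.05. Of the 8 products measured from the Mir17 to Mir92-1 hairpins on chromosome 14, 7 were at least 2-fold lower on the main scale, with miR-19b (-0.90) short of it. Both miR-19b and miR-92a also have a locus on chromosome X, and the array cannot separate their loci. The smaller Mir25/Mir93/Mir106b cluster on chromosome 5 differed less, with miR-25 at -1.03, miR-93 at -0.88 and miR-106b at -0.76. Detected on the primary array only, miR-363 was at least 7.75-fold lower and miR-18b at least 3.61-fold. Without scaling the bound of miR-363 stayed above 2-fold (log2 1.55) and that of miR-18b did not (0.45).

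The Dlk1-Dio3 cluster held more miRNAs below the main threshold than any other list. This imprinted region of chromosome 12 transcribes its miRNAs from the maternal allele, together with the non-coding RNAs Meg3, Rian and Mirg, and its silencing in stem cells is known to mark a reduced developmental capacity. Of 70 of its miRNAs on the array, 27 were detected in primary and 18 in secondary spheres. No member was detected on the secondary array only. Over all 611 mouse miRNAs, 186 and 209 were detected, with 49 on the secondary array only and 26 on the primary only. Among the 18 members measured on both arrays, 16 were at least 2-fold lower (25.6% over all miRNAs) and 0 higher. Their median was -1.55, or -1.14 relative to that of all miRNAs. With the authors' values 8 of the 18 were at least 2-fold lower (8.12% over all) and the median was -0.95, and without scaling it was -0.15. The intensity of miR-541 was 55.6 on the primary and 31.0 on the secondary array, a difference of -2.25. For miR-410 it was 66.0 and 40.1 (-2.12), and for miR-495 58.8 and 38.7 (-2.01). These intensities are low: the lowest detected signal was 17.7 on the primary and 21.9 on the secondary array. Still, all 3 were below 0 under every setting, whereas miR-434-3p (-1.20), miR-376a (-1.27) and miR-411 (-1.18) turned positive without scaling.

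The measured members came from several stretches of the region. The 4 measured miRNAs of the stretch Mir377, Mir541, Mir369 and Mir410, within the span of Mirg, were all at least 2-fold lower. Of the 9 measured in the stretch from Mir379 to Mir300, 8 were, the exception being miR-494 (-0.18). Near the other end, miR-127, encoded opposite the retrotransposon-derived gene Rtl1, had intensities of 72.0 and 70.2 and a difference of -1.44, while miR-136 differed by -0.50. Another miRNA of an imprinted gene, miR-335-5p, lies within the span of Mest on chromosome 6 (chr6:30741314-30741336). Its intensity was 217 on the primary and 153 on the secondary array, a difference of -1.91. The opposite strand miR-335-3p was detected on the primary array only, at least 4.71-fold lower, a bound short of 2-fold without scaling (log2 0.83).

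The miR-34, miR-130/301 and miR-135 families were also lower on the main scale. The miR-34 miRNAs are known as targets of p53 and brakes on the cell cycle. All 3 measured members were at least 2-fold lower (25.6% over all miRNAs). The differences were -1.70 for miR-34c, -1.61 for miR-34b-5p and -1.43 for miR-34a. Of the 3, 1 was at least 2-fold lower with the authors' values (8.12% over all miRNAs). Each stayed below 0 under all 8 settings, and the unscaled value of miR-34c was -0.29. For miR-34a the unscaled intensities were 236.4 and 232.7, a log2 gap smaller than its technical standard error of 0.032. In the miR-130/301 family, where miR-130a, miR-130b and miR-301a share the seed AGUGCAA, 2 of 4 were at least 2-fold lower (25.6% over all miRNAs), with a median of -0.99, or -0.58 relative to that of all miRNAs. Of the 4, 0 were with the authors' values (8.12% over all), and without scaling the median turned positive (0.41). The 2 were miR-130b (-1.08) and miR-301b (-1.43), from 1 cluster on chromosome 16. For the miR-135 family the median was -1.03, or -0.62 relative to that of all miRNAs. Of its 3 members, 2 were at least 2-fold lower (25.6% over all), and 0 were under the authors' values (8.12% over all). Without scaling its median turned positive (0.37).

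**Figure D3:**
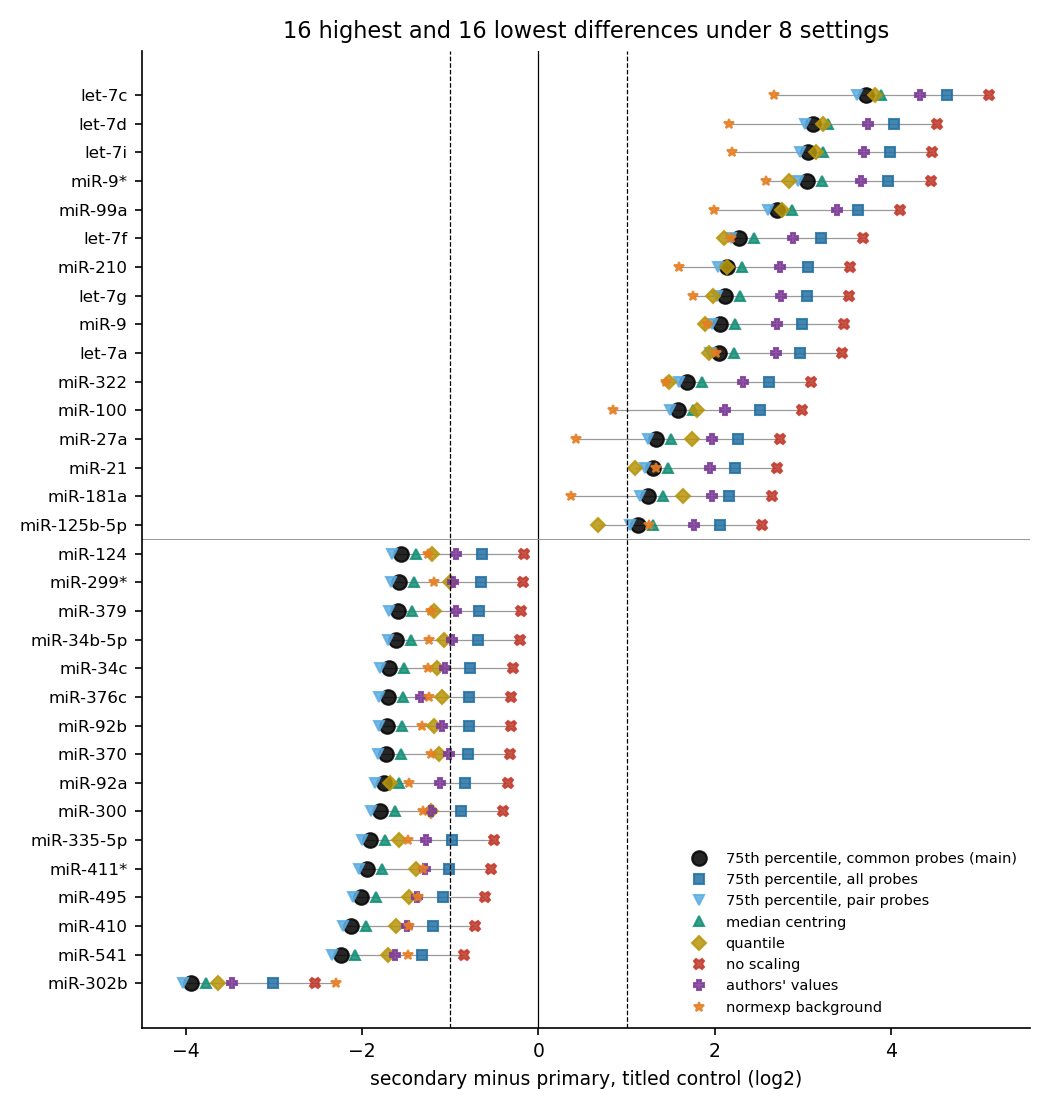
Difference between secondary and primary spheres (log2) for the 16 highest and 16 lowest miRNAs of the main scaling, each drawn under 8 settings; dashed lines mark 2-fold. The upper 16 stay above 0 and the lower 16 below 0 under all 8, but among the lower ones only miR-302b stays beyond 2-fold everywhere.

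Some miRNAs were higher outside the families above. The intensity of miR-210, the miRNA most closely tied to the hypoxia factor HIF, was 81.7 on the primary and 933 on the secondary array, a difference of 2.13. Its hairpin lies on chromosome 7 (chr7:141221407-141221428). For miR-21, common in growing and stressed cells, the intensities were 338 and 2227, with a difference of 1.30. Among the miR-181 family, which shares 1 seed, miR-181a was at least 2-fold higher (1.24), miR-181b and miR-181c differed by 0.56 and 0.064, and miR-181d by -0.56. The 2-fold calls of miR-181a and miR-27a were lost under normexp background correction (0.37 and 0.43), which adds an offset of 50 to each spot. Their primary intensities, 33.3 and 35.2, lay below that offset, and its part in the loss was not tested.

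Paralogous clusters with identical seeds also differed in the miR-23/27/24 group. From Mir23a/Mir27a/Mir24-2 on chromosome 8, miR-27a had intensities of 35.2 and 235 and a difference of 1.34, and miR-23a one of 0.997, just short of 2-fold. From Mir23b/Mir27b/Mir24-1 on chromosome 13, miR-27b differed by -0.24 and miR-23b by -0.41. The product common to both, miR-24, differed by 0.20.

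The X-linked cluster of miR-322 and miR-503, whose miRNAs are known to slow the cell cycle, was read mainly on the secondary array. The intensity of miR-322 was 128 on the primary and 1094 on the secondary array, a difference of 1.69 (Mir322 at chrX:53054306-53054327, in the span of the non-coding RNA gene C430049B03Rik). The other miRNAs with its seed did not differ by 2-fold: miR-15a by -0.11, miR-15b by -0.25 and miR-16 by -0.036. Its cluster partners were among the 49 of all 611 miRNAs detected on the secondary array only. The bound was 1.48-fold for miR-450a-5p, 1.23-fold for miR-503, 1.19-fold for miR-542-3p and 1.104-fold for miR-322*, all short of 2-fold, and miR-351 was too dim for one. Without scaling all 4 bounds passed 2-fold (log2 1.55 to 1.97), and with the authors' constants that of miR-450a-5p did (1.23).

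Across families, a shared seed did not fix the size of the difference. Of 19 seeds with 2 or more measured miRNAs, 11 had members of 1 sign only on the main scale. The span within the let-7 seed was 3.08, from let-7e to let-7c, and that within ACCCGUA was 2.69, from miR-99b to miR-99a. By contrast the 5 members of AAAGUGC spanned 0.65 and the 3 of AUUGCAC 0.72. Base composition moved little with the difference (Pearson's r of GC content and difference -0.12 over 102 miRNAs, a description only).

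**Figure D4:**
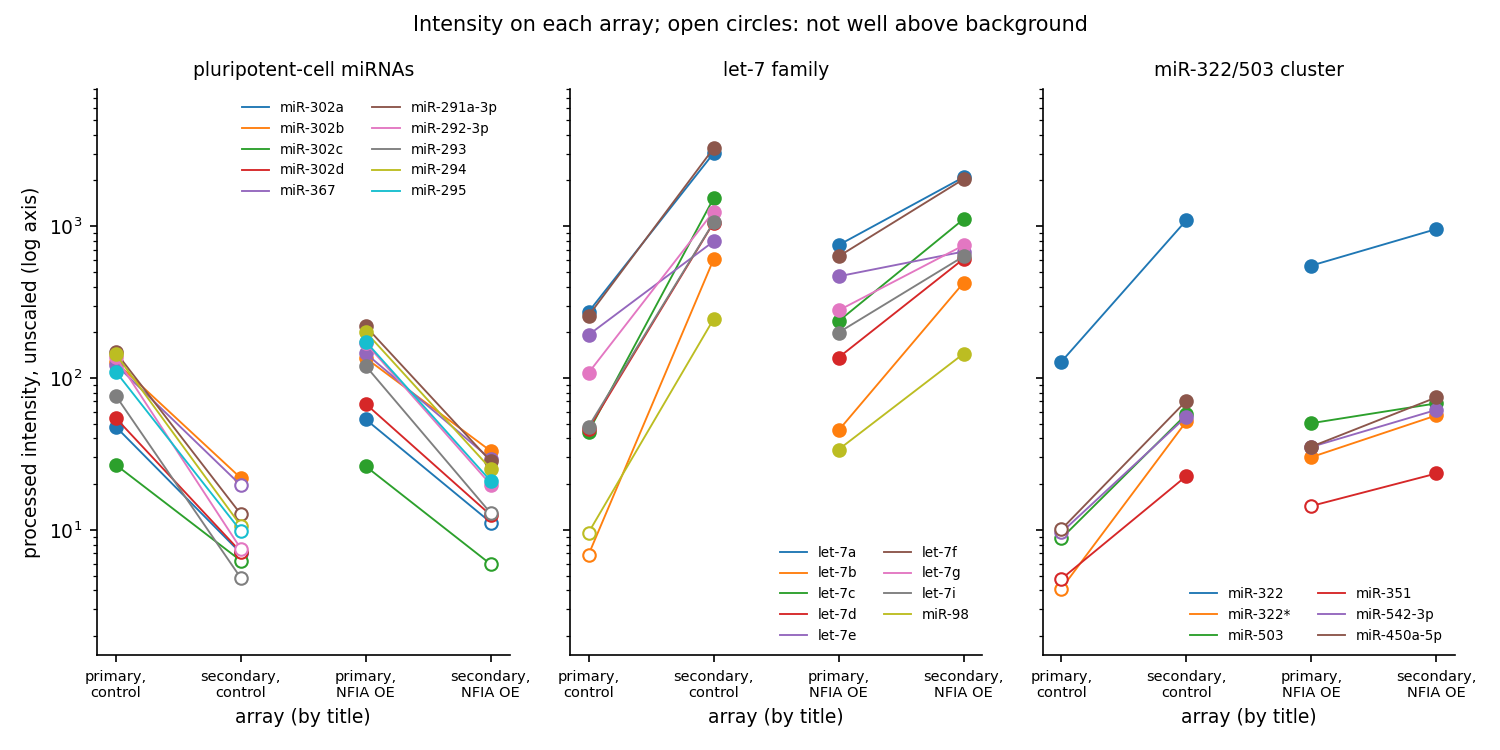
Unscaled processed intensity (log axis) of 3 groups of miRNAs on each of the 4 arrays, with lines joining the primary and secondary arrays of 1 title; open circles were not well above background. On the control-titled arrays, 9 of 10 pluripotent-cell miRNAs go from detected to not detected, and let-7b and miR-98 the other way.

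Detection limits bear on the one-sided miRNAs. On the scaled level, the lowest detected signal was -3.24 on the primary and -4.33 on the secondary array, so a dim miRNA could be read lower on the secondary array than on the primary one. Among the 54 miRNAs with the lowest mean level, 18 were at least 2-fold lower and 0 higher; among the 54 with the highest, 11 were lower and 14 higher. Of the 49 miRNAs detected on the secondary array only, 11 had a bound above 1 and 3 of at least 2-fold: let-7b, miR-98 and miR-10b. Bounds of at least 2-fold numbered 17 without scaling and 5 with the authors' constants, and bounds above 1 numbered 49 and 26. The intensity of miR-10b, from the Hoxd cluster, was 139 on the secondary and 8.62 on the primary array, at least 2.70-fold higher. Of the 26 detected on the primary array only, all had a bound of at least 2-fold, but 8 did without scaling and 15 with the authors' constants. On the main scale the gap between the 2 lowest detected levels gives such a bound by itself. This holds wherever the secondary signal was no higher than that array's lowest detected one, so the count of 26 carries no information on these miRNAs.

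The label of a neural culture was checked against markers. Detected on both arrays were the progenitor miRNAs miR-9, miR-9* and miR-92b and the neuronal miR-124, miR-128 and miR-218, which were all the markers set for these types. In the wider neuronal list of 13, 8 were detected on both arrays, 3 on the secondary only and 2 on neither. Of the astrocyte markers set, miR-29a was detected on the secondary array only and the others on both. Of the oligodendrocyte markers, miR-219 was detected on both arrays, miR-338-3p on the secondary only and miR-138 on neither. Of 24 miRNAs of muscle, blood, endothelium, epithelium and mesenchyme, 22 were detected on neither array, as were 376 of all 611 mouse miRNAs. The exceptions, miR-199a-3p (-0.60) and miR-199b* (-0.33), are given the same mature sequence. The pluripotent-cell miRNAs moved with passage as described, and their part in the other differences was not tested.

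The arrays titled NFIA OE gave the same comparison in other arrays. They share no array with the pair above, but the sorted cells of each passage came out of the same spheres, so the second pair is not an independent culture. On 153 miRNAs detected on all 4 arrays, 8 (5.23%) were at least 2-fold higher on the secondary array of that pair and 25 (16.3%) lower, against 16 and 41 in the control-titled pair. All 8 of these higher miRNAs were also higher in the control-titled pair, which is 50% of its 16, and 24 lower ones were shared, 96% of the one list and 58.5% of the other. Among the 153, all 16 higher and all 41 lower miRNAs of the control-titled pair had the same sign in the other pair. These 41 are not quite the 41 of the 160 above. Left out was miR-369-5p, not detected on the secondary NFIA OE-titled array. Added was miR-7a, at -1.11 over the probes detected on all 4 arrays, against -0.95 on the main scale. No miRNA was 2-fold in opposite directions, and Pearson's r over the 153 was 0.89, given as a description because arrays of 1 passage share a culture.

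Differences were wider in the control-titled pair. Their standard deviation over miRNAs was 1.16, against 0.76, with medians of -0.41 and -0.40. Of the 16 higher miRNAs, 15 had the larger difference in the control-titled pair, miR-210 being the exception (2.13 and 2.94), as did 38 of the 41 lower ones. Both sets were picked by their control-titled difference, which by itself favours that pair in these counts. The gap was widest for let-7c, with 3.71 in the control-titled and 1.72 in the NFIA OE-titled pair. The titles stood further apart on the primary arrays, where unscaled let-7c was 44.4 on the control-titled and 237 on the NFIA OE-titled array, while the secondary arrays read 1524 and 1112. For let-7i the differences were 3.06 and 1.17, for miR-99a 2.70 and 1.08, and for miR-322 1.69 and 0.31. Among the lower miRNAs, miR-302b differed by -3.94 and -2.53, and miR-92b by -1.71 and -0.39. With 1 array per title and passage, a difference between the pairs has no test.

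Both pairs had less signal of the stem cell clusters on the secondary array, and the NFIA OE-titled one had more of it left. On the secondary array titled NFIA OE, miR-291a-3p was still detected at 28.2, from 218 on its primary array, and so were miR-292-3p, miR-294, miR-295, miR-302b, miR-302d and miR-367. On that pair's primary array let-7b and miR-98 were detected, at 45.2 and 33.8. Of the 49 miRNAs seen only on the secondary control-titled array, 13 were also secondary-only in the other pair and 25 were detected on both its arrays. Of the 26 primary-only ones, 17 were primary-only there too and 7 were detected on both arrays.

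**Figure D5:**
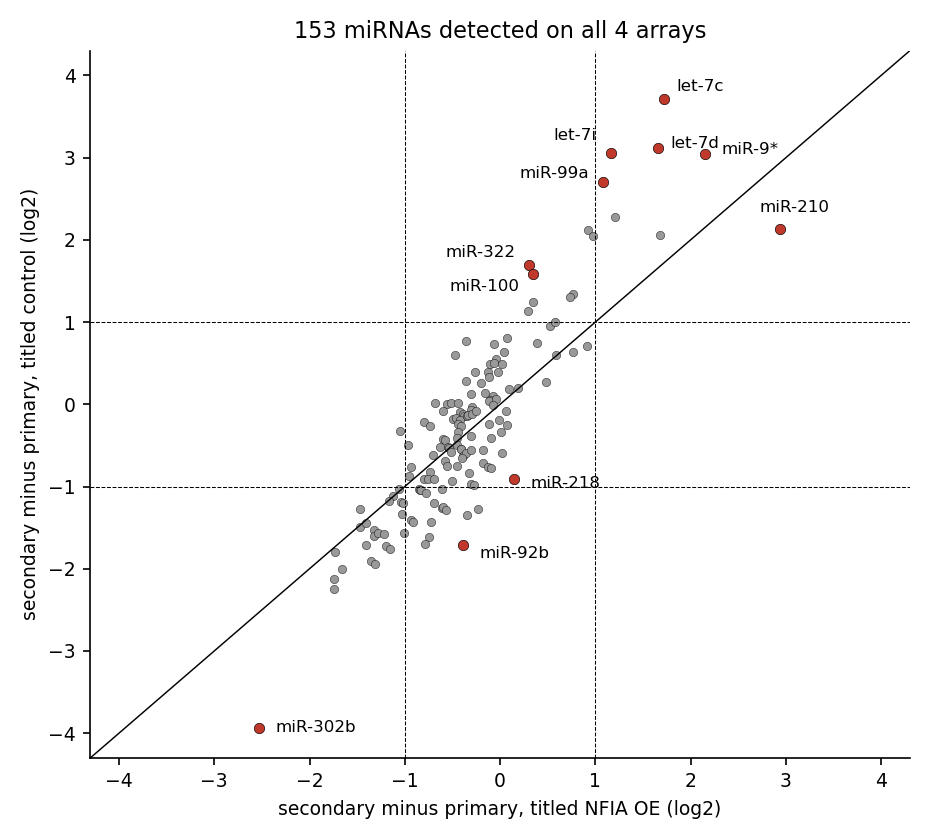
Difference between secondary and primary spheres (log2, 75th percentile scaling) for 153 miRNAs, with the NFIA OE-titled pair on the x axis and the control-titled pair on the y axis; the solid line marks equal differences and the dashed lines 2-fold. Most miRNAs beyond 2-fold lie farther from 0 on the y axis than on the x axis, with let-7c at 3.71 against 1.72.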

How the data were processed

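Small-RNA-containing total RNA was isolated with the miRNeasy kit and labelled with Cy3, per the labels' protocols. The authors deposited scanner files of spot intensity, made by the software Feature Extraction in version 10.5.1.1 (per the file headers). In these, processed intensity is background-subtracted and not scaled between arrays. A deposited table holds the authors' processed intensity per miRNA, which equals the scanner's total gene signal over 1 constant per array (20.3 and 33.7 for the primary and secondary arrays titled control).

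Each array had 13000 spots for 1857 probes. Outlier spots were left out (267 and 296) and 0 were saturated. Spots were averaged per probe, divided by the array's 75th percentile, taken over probes that every one of the 4 arrays detected, and put on the log2 scale. Intensities printed here are means over a miRNA's probes. All arrays lay on 1 slide, so position cannot be told apart from group. Sequences, loci and the genes spanning them came from RefSeq tables (GRCm38.p6), hairpins within 10 kb forming a cluster. limma 3.58.1 in R 4.3.3 gave the normexp background correction (offset 50) and Python 3.11.15 the rest. The scripts were tested on simulated data. With 1 array per group no test was made, and 2-fold served as the threshold.

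The miRNAs named were the 15 highest and 15 lowest differences of 1 sign under every scaling, up to 8 one-sided miRNAs each way with the largest bound, and members of 22 lists. They were joined by the 5 miRNAs each way that differed most from the NFIA OE-titled pair, those nearest 2-fold, and names of prior interest. Other names, such as the list members too dim for a fold, were chosen after their values were seen. Members, lists and rules were chosen with earlier results of these data known. The alternatives were 7 other scalings or value sets, the reference point, detection filters and rules, and the probe summary.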

Additional observations from a re-analysis of the deposited data

Results flagged for a closer look

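The difference between secondary and primary spheres had opposite signs in the 2 titles for miR-218, a miRNA of motor and other neurons, among the 5 miRNAs whose control-titled difference fell furthest short of the other pair. Opposite signs were found for 27 of the 153 miRNAs on all 4 arrays. For miR-218 the difference was -0.91 in the control-titled pair and 0.15 in the other pair. With 1 array per title and passage the difference between the pairs was not tested, and the sign of the first value turned with the scaling.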

How the results depend on the processing

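No paired analysis was possible because each group had 1 array and no replicate numbers, and no replicate could be left out. Under the 75th percentile over all probes, 45 miRNAs were higher, 5 lower and the median was 0.51. With quantile normalization these were 25, 27 and 0.0064, without scaling 79, 1 and 0.99, with the authors' values 35, 13 and 0.24, and relative to the median miRNA 27, 23 and 0. The median was -0.51 with the pair's own probes, -0.24 with median centring and -0.64 with normexp. With detection on at least 1 array 70 were lower (median -0.60), and with no filter 460 of 611 (-1.10), where probes near background enter. Detection on all 4 arrays, the all-spots rule and the brightest probe left both counts within 1.5 times. The all-spots rule gave 55 secondary-only and 23 primary-only miRNAs. Of 101 named and measured miRNAs, 41 kept their sign under every alternative run, as did the medians of 6 of 20 lists. Without scaling 136 of the 160 miRNAs lay above 0, against 52 on the main scale. Turned results that were at least 2-fold lower on the main scale included the miR-17 list (0.29) and the miR-135 list (0.37). They also included miR-1187 (0.13), miR-130b (0.32), miR-135a* (0.37), miR-135b (0.20), miR-17 (0.069) and miR-17* (0.36). The same held for miR-19a (0.22), miR-20a (0.36), miR-20a* (0.37), miR-25 (0.37) and miR-574-5p (0.062). Results short of 2-fold turned as well, such as the miR-130/301 list (0.41). The median of the hypoxia and growth list turned to -1.27 with detection on at least 1 array and to -1.10 with no filter, which admit more members. The causes of the other shifts were not tested. Nearest 2-fold on the main scale lay miR-125b-5p (1.13) inside and miR-23a (0.997) outside for higher, and miR-25 (-1.03) inside and miR-466f-3p (-0.98) outside for lower.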
